A study of Mus musculus with 15 samples.

Results

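The SLC25 family, the mitochondrial carriers, was examined as the genes whose GENCODE vM21 symbol is Slc25a followed by a number. The rule found 47 genes, out of 37740 genes listed in at least 1 of the 15 expression tables, and all 47 were listed in every table. Of these, 46 passed the filter of at least 1 TPM (a relative transcript level, corrected for transcript length) in at least 2 libraries and were tested among 29989 genes; Slc25a48 did not. SLC25 proteins sit mostly in the inner mitochondrial membrane and exchange small molecules between the cytosol and the matrix. They let ADP and phosphate in and ATP out for respiration, and they move citrate, dicarboxylates, amino acids, acylcarnitines, glutathione, iron and cofactors between the compartments. T cells that are activated grow and divide, which draws on both mitochondrial ATP and mitochondrial precursors for biosynthesis.

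The cells were regulatory T (Treg) cells, which restrain other immune cells, taken from lymph nodes and spleens of Foxp3YFP-Cre/+ Dock8flox/flox females on the C57BL/6 background. Foxp3 is on the X chromosome, so each Treg cell of such a mouse uses either the X with YFP-Cre or the other one. YFP+ cells are labelled DOCK8 deficient and YFP- cells WT; both carry the floxed Dock8 alleles, and Cre is driven from Foxp3, so it acts in cells that express that gene. The sort took CD25+CD39+ cells that the growth protocol describes as CD3+ and the design text as CD4+. Culture lasted 16 h, without stimulus or with anti-CD3+CD28 beads (1 per Treg cell) that stimulate through the T cell receptor and CD28. The groups were DOCK8-deficient with beads (n = 2), WT with beads (n = 3), DOCK8-deficient unstimulated (n = 6) and WT unstimulated (n = 4). The design text calls the samples independent and does not say whether they are separate mice or cultures, so a p-value measures only how far these samples spread, which may be technical. Because YFP+ cells use 1 particular X chromosome, a genotype difference of the 4 X-linked members, Slc25a5, Slc25a14, Slc25a43 and Slc25a53, cannot be told apart from a difference between the X chromosomes in use.

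Read depth is not kept in TPM values, and it is unknown here. Listed TPM summed to between 819697 and 938139 per library, and the tables of bead and unstimulated libraries list different sets of genes, a difference that every comparison of treatments spans. Dock8 was at 6.70 to 11.9 TPM in the 6 DOCK8-deficient unstimulated libraries and at 9.15 to 21.98 TPM in the 4 WT ones, a log2 difference of -0.67 (two-sided exact permutation test, p = 0.0190); the groups overlapped. The difference was -0.46 (exact p = 0.0714) without WT library 3 and -0.32 (exact p = 0.133) when libraries were scaled to abundant genes. With beads Dock8 was at 7.90 and 5.82 TPM in DOCK8-deficient cells and 8.71, 10.1 and 8.91 TPM in WT cells (log2 -0.39, exact p = 0.1, the smallest that 2 against 3 allows). Summed Treg and T cell markers reached 1355 to 1467 TPM in DOCK8-deficient and 1318 to 1352 TPM in WT cells with beads, and 337 to 522 TPM in DOCK8-deficient and 502 to 861 TPM in WT cells without beads. Within the sum with beads, Tnfrsf18 was at 605 to 696 TPM in DOCK8-deficient and 469 to 541 TPM in WT cells. Foxp3 (42.2 to 42.7 against 88.6 to 106 TPM) and Il2ra (97.1 to 140 against 171 to 227 TPM) were lower in DOCK8-deficient cells. So was Ikzf2 (20.2 to 26.4 against 29.4 to 45.0 TPM). YFP+ and YFP- cells use Foxp3 alleles with and without YFP-Cre, so the Foxp3 difference cannot be told apart from one between these alleles. The other markers overlapped, and none of the 8 differed by genotype with beads at a limma adjusted p under 0.05. The sums of 5 CD8 T and NK cell, 5 B cell, 6 myeloid and 4 erythroid markers stayed at or below 63.3 TPM in every library. Lyz2, among the 6 myeloid markers, was not listed for unstimulated libraries and counted there as 0. Unstimulated DOCK8-deficient libraries 1, 2, 4 and 5 stood apart by a cut of 0.9, applied after seeing the data, on the level of abundant genes. The 893 abundant genes, whose mean reached 50 TPM in every group, lay there at 0.696 to 0.849 times their average over all libraries. In the other 2 of that group they lay at 1.07 and 1.11 times. WT unstimulated libraries lay at 0.919 to 1.26 times, so the lowest of them was near the cut. The predicted genes Gm10800 and Gm10801 together took 8.68% to 12.3% of TPM in DOCK8-deficient and 5.61% to 9.16% in WT bead libraries. They took 26.8% to 32.1% in these 4 unstimulated DOCK8-deficient libraries, 17.9% and 22.6% in the other two, and 10.6% to 24.9% in WT unstimulated ones, so this share differs in every comparison with beads, and its part in the carrier levels was not tested. Calls of members that change without the 4 libraries, or when scaled to the 893 genes, are given so beside them.

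The family took a small share of the transcriptome, and that share was larger in cells with beads. Its summed level was 1564 and 1774 TPM in the 2 DOCK8-deficient bead libraries, and 1829 to 2054 TPM in the 3 WT bead libraries. Without beads it was 412 TPM at lowest, a median of 625.2 TPM and 765 TPM at highest in DOCK8-deficient libraries, and 593 to 1041 TPM in WT libraries. The bead groups lay above both unstimulated groups with no overlap. Divided by the scale factor of the 893 genes, the sums were 1289 and 1529 TPM in DOCK8-deficient and 1689 to 1830 TPM in WT cells with beads, against 592 to 871 TPM in DOCK8-deficient and 645 to 825 TPM in WT cells unstimulated. In bulk libraries such as these, a lower level can come from fewer cells of a kind or from less RNA per cell, and these cannot be told apart. A pair of members carried much of the total: Slc25a3, the phosphate carrier, and Slc25a5, the main ADP/ATP carrier of dividing cells, made up 64.0% and 67.3% of it in DOCK8-deficient and 68.1% to 72.5% in WT cells with beads. Unstimulated, they made up 31.9% to 47.6% in DOCK8-deficient and 37.3% to 50.4% in WT cells. Without these 2 genes the family sum was 563 and 581 TPM in DOCK8-deficient and 512 to 655 TPM in WT cells with beads, against 267 to 507 TPM in DOCK8-deficient and 372 to 569.8 TPM in WT cells unstimulated. Slc25a3 had the highest mean in both unstimulated groups and Slc25a5 the second, and with beads this order was turned round in both genotypes.

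Every call in the family was in a comparison of cells with beads and unstimulated cells. A member was called at a limma adjusted p under 0.05 over all genes tested. In DOCK8-deficient cells, 7 of 46 members were called higher, beside a background of 5.95% of all genes, and 0 lower, beside 2.15%; at an unadjusted p under 0.05, 4 members were lower. In WT cells 5 of 46 were called higher, beside 4.6%, and 3 lower, beside 6.63%. The ones higher in both genotypes were Slc25a3, Slc25a4, Slc25a5, Slc25a17 and Slc25a39; Slc25a1 passed in DOCK8-deficient cells, and Slc25a24, Slc25a40 and Slc25a45 were lower in WT cells. The other 36 tested members passed in neither. Among genes whose mean reached 20 TPM in a group, 32.6% were called in either direction in DOCK8-deficient and 35.6% in WT cells. Of the 15 members at that level, 7 (46.7%) and 6 (40%) were called in the same genotypes. Nothing particular to the family is read from these counts. Over all members the median log2 difference with beads was 0.10 in DOCK8-deficient cells, beside -0.23 for all genes tested, and -0.09 in WT cells, beside -0.44.

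**Figure D1:**
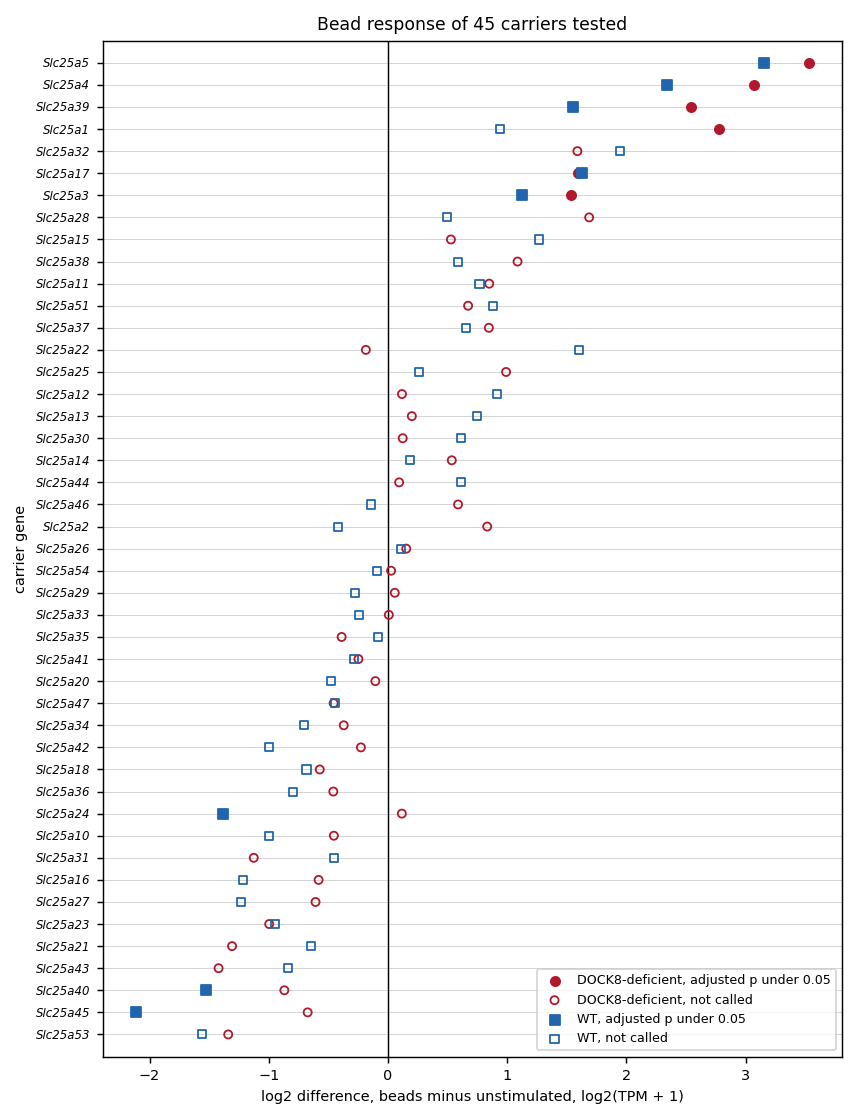
log2 difference between cells with beads and unstimulated cells for 45 of the 46 tested carriers, on the log2(TPM + 1) scale, in DOCK8-deficient (circles) and WT (squares) cells; filled marks passed a limma adjusted p of 0.05. Slc25a5 and Slc25a4 lie farthest to the right in both genotypes, at 3.53 and 3.07 in DOCK8-deficient and 3.15 and 2.34 in WT cells, while Slc25a45 lies at -0.67 in DOCK8-deficient and -2.11 in WT cells.

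The split between higher and lower calls depended on scaling. When libraries were scaled to the 893 abundant genes, 5 members were called higher and 2 lower in DOCK8-deficient cells, beside 4.31% and 5.95% of all genes; Slc25a17 (adjusted p = 0.0637) no longer passed, and Slc25a43 (log2 -1.83, adjusted p = 0.0134) and Slc25a53 (-1.74, 0.0468) passed as lower. In WT cells that scaling gave 5 higher and 3 lower, beside 4.95% and 5.68%. Median-ratio scaling gave 11 higher and 0 lower in WT cells, beside 8.49% and 2.06% of all genes, and 7 higher and 0 lower in DOCK8-deficient cells, beside 7.58% and 1.82%. Scaling to abundant genes turned the sign of the members' median in DOCK8-deficient cells, to -0.24, and moved the median of all genes to -0.45 there and to 0.12, against -0.11 as deposited, for genotype without beads, so small log2 differences are read against such shifts.

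Among the 10 carriers of adenine nucleotides and phosphate, 4 were called higher with beads in each genotype and 1 lower in WT cells. Over all genes, 5.95% were called higher in DOCK8-deficient cells, and 4.6% higher and 6.63% lower in WT cells. Median log2 differences were 0.55 in DOCK8-deficient and -0.01 in WT cells, beside -0.23 and -0.44 for all genes in the same genotypes. Nothing particular to a role is read from such counts. Slc25a5 (chrX:36795651-36798807, plus strand) encodes ANT2, which trades cytosolic ADP for matrix ATP. It was at 570.2 and 681 TPM in DOCK8-deficient and 794, 834 and 789 TPM in WT cells with beads. Unstimulated, it was at 35.5 to 97.1 (median 48.7) TPM in DOCK8-deficient and 102, 79.8, 55.9 and 141 TPM in WT cells. Every bead library was above every unstimulated one, and the DOCK8-deficient bead libraries were below the WT ones. The log2 difference with beads was 3.53 (SE 0.38, limma adjusted p = 0.000107) in DOCK8-deficient and 3.15 (SE 0.36, limma adjusted p = 0.000159) in WT cells, the largest among the 46 members in both, and it was called under each of the 28 alternatives tried. The processed pseudogene Slc25a5-ps stayed at or below 1.55 TPM; reads shared with other near-identical copies would be assigned by the authors' quantification.

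Slc25a4, which encodes ANT1, the ADP/ATP carrier typical of heart and muscle, also rose. It was at 59.3 and 79.9 TPM in DOCK8-deficient and 82.8, 89.4 and 83.9 TPM in WT cells with beads. Without beads it was at 1.75 to 19.8 (median 6.89) TPM in DOCK8-deficient and 26.8, 14.97, 6.11 and 25.7 TPM in WT cells. No unstimulated library reached any bead library. The log2 differences were 3.07 (SE 0.62, limma adjusted p = 0.00669) in DOCK8-deficient and 2.34 (SE 0.58, limma adjusted p = 0.0177) in WT cells. Slc25a31, which encodes the ADP/ATP carrier of the testis, averaged 0.191 ± 0.00990 TPM in DOCK8-deficient and 0.368 ± 0.413 TPM in WT cells with beads (SD, n = 2 and 3), and 1.66 ± 0.675 TPM in DOCK8-deficient and 0.967 ± 0.830 TPM in WT cells unstimulated (SD, n = 6 and 4). The ratio of Slc25a5 to Slc25a4 within a library was 9.62 and 8.52 in DOCK8-deficient and 9.32 to 9.60 in WT cells with beads. Unstimulated, it was 2.28 to 22.8 in DOCK8-deficient and 3.82 to 9.15 in WT cells, a range that holds the bead values in DOCK8-deficient cells. The Slc25a4 calls were lost without DOCK8-deficient bead library 4 (adjusted p = 0.0637) or 5 (0.128) and, in WT cells, without bead library 1 (0.0589), 2 (0.0625) or 3 (0.0615) or unstimulated library 2 (0.0516). A group left with 1 library is assumed to vary like the others. Without the 4 unstimulated libraries that stood apart the DOCK8-deficient difference was 2.04 (0.0804).

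Slc25a3 brings phosphate, and in mammals also copper, into the matrix. It was at 431 and 512 TPM in DOCK8-deficient and 559, 566 and 475 TPM in WT cells with beads. The unstimulated level was 100.3 to 227 (median 182) TPM in DOCK8-deficient and 294, 222, 165 and 329.5 TPM in WT cells. The bead and unstimulated groups did not overlap, with log2 differences of 1.54 (SE 0.35, limma adjusted p = 0.0135) in DOCK8-deficient and 1.12 (SE 0.33, limma adjusted p = 0.0393) in WT cells. The ratio of Slc25a5 to Slc25a3 was 1.32 and 1.33 in DOCK8-deficient and 1.42 to 1.66 in WT bead libraries, against 0.213 to 0.520 in DOCK8-deficient and 0.339 to 0.429 in WT unstimulated ones. The Slc25a3 call in DOCK8-deficient cells was lost without bead library 4 (0.0988) or 5 (0.190), with only the DOCK8-deficient libraries in the fit (0.0544) and, at 1.09, without the 4 libraries that stood apart (0.111). In WT cells it was lost without bead library 1 (0.125), 2 (0.123) or 3 (0.0887), WT unstimulated library 1 (0.0907) or 2 (0.104), DOCK8-deficient bead library 4 (0.0529) or 5 (0.0530), and under quantile normalization (0.0966).

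Slc25a17, a peroxisomal carrier of CoA, FAD and adenine nucleotides, was at 28.8 and 30.7 TPM in DOCK8-deficient and 36.4, 43.9 and 45.05 TPM in WT cells with beads. Its level without beads was 3.74 to 17.1 (median 9.93) TPM in DOCK8-deficient and 14.9, 12.1, 7.9996 and 18.3 TPM in WT cells. Its bead libraries lay above all unstimulated ones, with log2 differences of 1.59 (SE 0.45, limma adjusted p = 0.0403) in DOCK8-deficient and 1.63 (SE 0.42, limma adjusted p = 0.0214) in WT cells. The DOCK8-deficient call was lost without bead library 4 (0.228) or 5 (0.282), DOCK8-deficient unstimulated library 1 (0.0610) or 2 (0.0619), WT unstimulated library 1 (0.0532), or WT bead library 1 (0.0564), 2 (0.0565) or 3 (0.0563), without both unnumbered libraries (0.0538), under quantile normalization (0.0800), and with only the DOCK8-deficient libraries in the fit (0.126). Without the 4 libraries that stood apart the difference was 1.202 (0.127). The WT call was lost without WT bead library 1 (0.0566), 2 (0.0766) or 3 (0.0823) or WT unstimulated library 1 (0.0504) or 2 (0.0629).

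The 4 carriers that exchange ATP-Mg for phosphate and so set the adenine nucleotide pool of the matrix, Slc25a23, Slc25a24, Slc25a25 and Slc25a41, had no member called higher. Slc25a24 was at 4.93 and 4.25 TPM in DOCK8-deficient and 1.88, 4.68 and 2.305 TPM in WT cells with beads. Unstimulated, it was at 3.06 to 5.32 (median 4.18) TPM in DOCK8-deficient and 6.57, 17.2, 6.05 and 8.82 TPM in WT cells. All WT unstimulated libraries were above the 3 WT bead libraries, while both DOCK8-deficient groups covered the same low range. In WT cells Slc25a24 fell by 1.39 in log2 units (SE 0.38, limma adjusted p = 0.0305), and in DOCK8-deficient cells the difference was 0.12 (SE 0.41, limma adjusted p = 0.907). The WT call was lost without WT unstimulated library 1 (adjusted p = 0.0892) or 3 (0.0523), without WT bead library 1 (0.137) or 3 (0.118), under median-ratio scaling (0.158) and quantile normalization (0.299), and with only the WT libraries in the fit (0.0838). Slc25a23, Slc25a25 and Slc25a41 had group means of 0.407 to 13.4 TPM and log2 differences of -0.997 to 0.99 with beads in both genotypes, none called. Slc25a42, the carrier of CoA and adenine nucleotides, averaged 6.02 ± 0.0314 TPM in DOCK8-deficient and 2.66 ± 0.779 TPM in WT cells with beads, and 7.67 ± 3.01 TPM in DOCK8-deficient and 6.61 ± 3.21 TPM in WT cells unstimulated. Its log2 differences were -0.23 (SE 0.43, limma adjusted p = 0.816) in DOCK8-deficient and -0.995 (SE 0.40, limma adjusted p = 0.130) in WT cells.

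**Figure D2:**
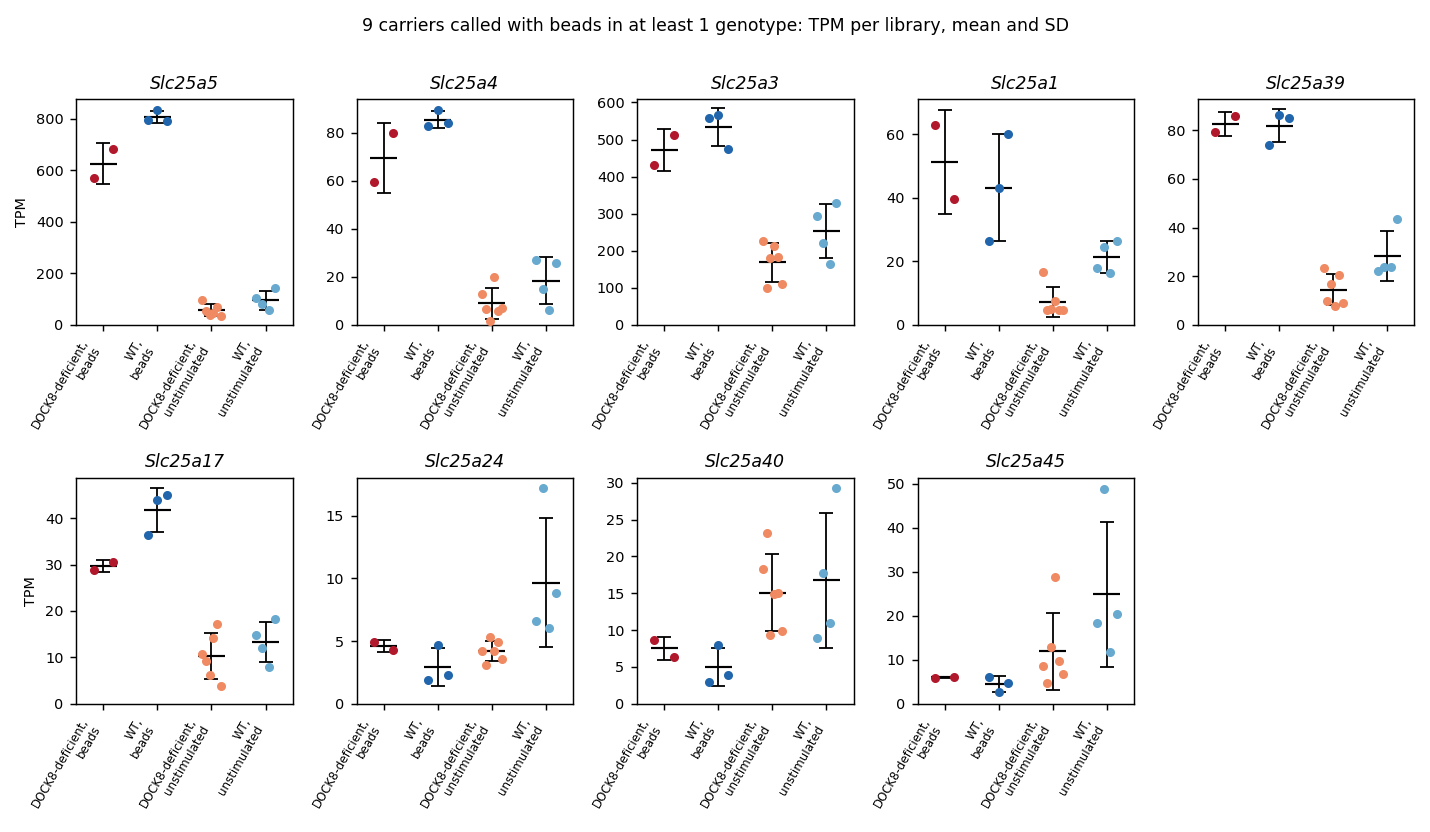
TPM per library (points), mean (wide bar) and SD (whiskers) of 9 carriers called with beads in at least 1 genotype, for DOCK8-deficient with beads (n = 2), WT with beads (n = 3), DOCK8-deficient unstimulated (n = 6) and WT unstimulated (n = 4), with a separate linear TPM axis per gene. Slc25a5 bead libraries lie at 570.2 to 834 TPM, above all unstimulated libraries at 35.5 to 141 TPM, while Slc25a24, Slc25a40 and Slc25a45 are highest in single WT unstimulated libraries.

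Of the 4 di- and tricarboxylate carriers, Slc25a1 alone passed, in DOCK8-deficient cells, where 5.95% of all genes were called higher. Slc25a1 (chr16:17925223-17928219, minus strand) exports citrate, the source of cytosolic acetyl-CoA for lipid synthesis and acetylation. It was at 62.8 and 39.5 TPM in DOCK8-deficient and 26.4, 43.2 and 60.03 TPM in WT cells with beads. Without beads it was at 16.5 TPM in the unnumbered DOCK8-deficient library and at 4.54 to 7.51 TPM in the other 5, and at 17.97, 24.4, 16.2 and 26.5 TPM in WT cells. Both DOCK8-deficient bead libraries were above all DOCK8-deficient unstimulated ones, whereas the lowest WT bead library (26.4 TPM) lay beside the highest WT unstimulated one (26.5 TPM). The log2 difference with beads was 2.78 (SE 0.45, limma adjusted p = 0.00157) in DOCK8-deficient and 0.94 (SE 0.42, limma adjusted p = 0.172) in WT cells. Without bead library 4 the DOCK8-deficient difference was 2.45 (adjusted p = 0.0539), and without the 4 unstimulated libraries that stood apart it was 2.06 (0.0472). In WT cells median-ratio scaling brought Slc25a1 past the threshold, at 1.54 (0.0169).

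Slc25a11, the oxoglutarate and malate carrier of the malate-aspartate shuttle, was at 29.4 and 44.6 TPM in DOCK8-deficient and 48.1, 41.7 and 45.3 TPM in WT cells with beads. Without beads it was at 11.9 to 45.00 (median 18.8) TPM in DOCK8-deficient and 34.4, 24.04, 16.4 and 33.4 TPM in WT cells. The WT groups did not overlap, and the log2 differences of 0.85 (SE 0.43, limma adjusted p = 0.273) in DOCK8-deficient and 0.77 (SE 0.40, limma adjusted p = 0.239) in WT cells did not pass. Its exons overlap Rnf167 on the other strand by 189 bases, and Rnf167 averaged 51.4 TPM in DOCK8-deficient and 49.3 TPM in WT cells with beads, and 79.5 and 117 TPM in the same genotypes without; whether reads were assigned by strand is not given in the sources used here, so reads in the overlap cannot be told apart. Slc25a10, the dicarboxylate carrier, averaged 10.97 ± 2.001 TPM in DOCK8-deficient and 14.8 ± 7.46 TPM in WT cells with beads, and 17.4 ± 9.496 TPM in DOCK8-deficient and 28.1 ± 5.897 TPM in WT cells unstimulated. Its log2 differences were -0.45 (SE 0.53, limma adjusted p = 0.677) in DOCK8-deficient and -0.995 (SE 0.49, limma adjusted p = 0.216) in WT cells. Slc25a21, the oxodicarboxylate carrier of lysine breakdown, stayed under 4 TPM in every group mean, and its difference of -1.31 in DOCK8-deficient cells did not pass (adjusted p = 0.201).

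Among the carriers of other nucleotides and cofactors, Slc25a32, the folate and FAD carrier, was at 7.32 and 9.81 TPM in DOCK8-deficient and 10.3, 12.4 and 9.19 TPM in WT cells with beads. The unstimulated level was 0.339 to 4.99 (median 2.96) TPM in DOCK8-deficient and 6.71, 2.51, 1.99 and 0 TPM in WT cells. The bead and unstimulated groups did not overlap, and the differences of 1.59 (SE 0.66, limma adjusted p = 0.172) in DOCK8-deficient and 1.94 (SE 0.62, limma adjusted p = 0.0552) in WT cells did not pass. The WT difference passed in 9 of 27 alternatives, among them median-ratio scaling (log2 2.38, adjusted p = 0.0197), a pseudocount of 5 (log2 1.06, adjusted p = 0.0250), a filter of 5 TPM (adjusted p = 0.0354) and the fits without the unnumbered WT unstimulated library (log2 2.40, adjusted p = 0.0199) or DOCK8-deficient unstimulated library 3 (adjusted p = 0.0411).

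Slc25a36, which with Slc25a33 carries pyrimidine nucleotides needed for mitochondrial DNA and RNA, was the third most abundant member without beads. It was at 26.4 and 18.9 TPM in DOCK8-deficient and 17.9, 19.5 and 17.4 TPM in WT cells with beads. Its level without beads was 19.3 to 46.9 (median 33.5) TPM in DOCK8-deficient and 30.1, 38.1, 27.8 and 34.9 TPM in WT cells. WT groups did not overlap, and the differences of -0.46 (SE 0.38, limma adjusted p = 0.539) in DOCK8-deficient and -0.80 (SE 0.36, limma adjusted p = 0.168) in WT cells did not pass. Slc25a33 had group means of 1.55 to 4.83 TPM. Slc25a16, linked to CoA transport, averaged 6.12 ± 2.92 TPM in DOCK8-deficient and 3.59 ± 0.440 TPM in WT cells with beads, and 10.2 ± 5.12 TPM in DOCK8-deficient and 10.3 ± 4.24 TPM in WT cells unstimulated. Its WT difference of -1.22 did not pass (adjusted p = 0.107); it passed with array weights (adjusted p = 0.0235). The NAD+ carrier Slc25a51 and the S-adenosylmethionine carrier Slc25a26 had group means of 5.96 to 11.3 TPM and differences of 0.11 to 0.88, none called. Exons of Slc25a51 overlap Gm25692 on the same strand by 125 bases. Gm25692 averaged 392 TPM in DOCK8-deficient and 178 TPM in WT unstimulated cells and was not listed for bead libraries. Slc25a26 overlaps Lrig1 (group means of 10.2 to 20.9 TPM) on the other strand by 144 bases. Reads in these overlaps cannot be told apart.

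The paralogues Slc25a39 and Slc25a40 differed with beads in opposite directions, called for both genes in WT cells. Slc25a39 (chr11:102402985-102407946, minus strand) is required for glutathione import into mitochondria, a role that Slc25a40 can share. Slc25a39 was at 79.1 and 85.9 TPM in DOCK8-deficient and 74.02, 86.3 and 85.1 TPM in WT cells with beads. Unstimulated, it was at 7.73 to 23.2 (median 13.2) TPM in DOCK8-deficient and 21.97, 23.7, 23.8 and 43.5 TPM in WT cells. WT unstimulated library 3 (43.5 TPM) stood off from the other 3. Slc25a40 (chr5:8422850-8454797, plus strand) was at 8.61 and 6.38 TPM in DOCK8-deficient and 3.001, 7.93 and 3.94 TPM in WT cells with beads. Without beads it was at 9.31 to 23.2 (median 14.97) TPM in DOCK8-deficient and 8.97, 17.8, 10.9 and 29.3 TPM in WT cells. Bead and unstimulated groups did not overlap in either genotype, for either gene.

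On the log2 scale Slc25a39 rose by 2.54 (SE 0.41, limma adjusted p = 0.00142) in DOCK8-deficient and 1.55 (SE 0.38, limma adjusted p = 0.0158) in WT cells. The DOCK8-deficient call was kept under all 28 alternatives, and the WT call was lost without WT bead library 2 (adjusted p = 0.0617) or 3 (0.0638) and under quantile normalization (0.0727). Slc25a40 differed by -0.87 (SE 0.47, limma adjusted p = 0.307) in DOCK8-deficient cells and fell by 1.52 (SE 0.44, limma adjusted p = 0.0349) in WT cells. The WT call was lost without WT unstimulated library 1 (0.0839) or 3 (0.0849), without WT bead library 1 (0.154) or 3 (0.124), under median-ratio scaling (0.126) and quantile normalization (0.130), and with only the WT libraries in the fit (0.0744). The ratio of Slc25a39 to Slc25a40 within a library does not depend on scaling. It was 9.19 and 13.5 in DOCK8-deficient and 24.7, 10.9 and 21.6 in WT cells with beads, against 0.418 to 1.79 in DOCK8-deficient and 1.33 to 2.45 in WT cells unstimulated. Slc25a40 was the more abundant of the pair in 3 of 6 unstimulated DOCK8-deficient libraries and in none of the others.

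**Figure D3:**
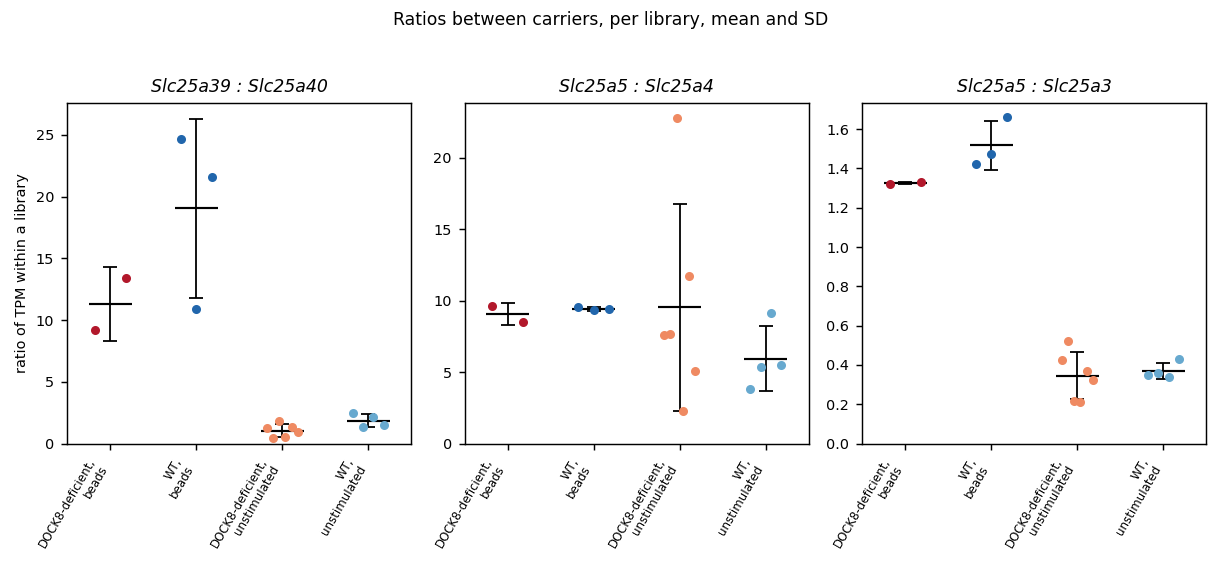
Ratio of TPM between 2 carriers within each library (points), with mean and SD, for DOCK8-deficient with beads, WT with beads, DOCK8-deficient unstimulated and WT unstimulated libraries. Slc25a39 to Slc25a40 lies at 9.19 to 24.7 with beads and at 0.418 to 2.45 without. Slc25a5 to Slc25a3 lies at 1.32 to 1.66 with beads and 0.213 to 0.520 without, while Slc25a5 to Slc25a4 overlaps between treatments.

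The promoters of 4 of these members are shown, chosen among those that rose in DOCK8-deficient cells (Slc25a5, Slc25a1, Slc25a39) or went against a paralogue (Slc25a40). They are RefSeq windows on GRCm38.p6 around the RefSeq start of each gene, at chrX:36795347-36795646 (plus strand), chr16:17928170-17928469 (minus), chr11:102407468-102407767 (minus) and chr5:8422588-8422887 (plus). Capitals mark GGGCGG, the GC box, or CACGTG, an E-box, on either strand; no 2 marked motifs overlap. The Slc25a5 window ends just before the start of the GENCODE gene, and the Slc25a39 window lies wholly within its GENCODE gene. Slc25a3, Slc25a4 and Slc25a17 were also called higher in DOCK8-deficient cells, and their promoters are not shown.
Slc25a5: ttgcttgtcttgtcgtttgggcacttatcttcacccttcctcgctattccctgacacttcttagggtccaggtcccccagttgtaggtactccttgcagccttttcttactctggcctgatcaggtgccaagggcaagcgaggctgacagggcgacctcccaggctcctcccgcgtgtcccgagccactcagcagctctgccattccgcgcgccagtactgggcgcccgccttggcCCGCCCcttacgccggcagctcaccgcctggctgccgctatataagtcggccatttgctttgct
Slc25a1: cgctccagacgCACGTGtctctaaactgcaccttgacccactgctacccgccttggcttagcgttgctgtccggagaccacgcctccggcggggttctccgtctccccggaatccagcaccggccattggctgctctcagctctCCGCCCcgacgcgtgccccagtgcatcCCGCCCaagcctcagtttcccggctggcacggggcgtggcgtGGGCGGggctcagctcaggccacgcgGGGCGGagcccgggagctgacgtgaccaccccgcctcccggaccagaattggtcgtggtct
Slc25a39: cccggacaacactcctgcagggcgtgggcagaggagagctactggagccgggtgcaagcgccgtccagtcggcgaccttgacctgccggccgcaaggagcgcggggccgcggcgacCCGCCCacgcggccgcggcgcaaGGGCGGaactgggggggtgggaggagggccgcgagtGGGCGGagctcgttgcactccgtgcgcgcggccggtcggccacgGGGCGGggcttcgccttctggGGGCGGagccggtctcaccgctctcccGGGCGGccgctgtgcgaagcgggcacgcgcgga
Slc25a40: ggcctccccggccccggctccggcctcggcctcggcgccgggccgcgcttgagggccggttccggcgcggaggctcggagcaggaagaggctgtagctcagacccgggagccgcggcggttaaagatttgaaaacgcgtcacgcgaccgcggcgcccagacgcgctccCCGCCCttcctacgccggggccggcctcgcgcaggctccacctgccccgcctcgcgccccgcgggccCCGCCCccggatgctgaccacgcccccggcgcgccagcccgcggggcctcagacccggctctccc
These windows hold 1 GC box in Slc25a5, 4 GC boxes and 1 E-box in Slc25a1, 6 GC boxes in Slc25a39 and 2 in Slc25a40. The 36 matched member genes have 46 RefSeq promoters, and GGGCGG was found in 38 of these 46, beside 35.7% of all 32851 promoters; promoters of mouse genes that many cells use are often rich in G and C, and no comparison matched for that was made. CACGTG was found in 8 of the 46, beside 7.15%, the ETS motif CCGGAAG in 7, beside 8.86%, and CCAAT in 22, beside 37.4%. Slc25a39 and Slc25a40 both hold GC boxes and no E-box in this window. A match is a description of letters and not a binding site.

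Slc25a20, which brings acylcarnitines in for fatty acid oxidation, was at 19.1 and 21.2 TPM in DOCK8-deficient and 15.3, 21.6 and 14.5 TPM in WT cells with beads. The unstimulated level was 16.2 to 26.7 (median 21.99) TPM in DOCK8-deficient and 20.6, 21.1, 21.1 and 35.8 TPM in WT cells. Its groups overlapped, and the differences were -0.11 (SE 0.31, limma adjusted p = 0.883) in DOCK8-deficient and -0.48 (SE 0.29, limma adjusted p = 0.306) in WT cells. Slc25a28 and Slc25a37, the mitoferrins that import iron, were low: Slc25a28 averaged 3.699 ± 0.188 TPM in DOCK8-deficient and 2.49 ± 1.13 TPM in WT cells with beads, and 0.615 ± 0.875 TPM in DOCK8-deficient and 1.77 ± 1.598 TPM in WT cells unstimulated. Its differences were 1.69 (SE 0.58, limma adjusted p = 0.0902) in DOCK8-deficient and 0.49 (SE 0.54, limma adjusted p = 0.602) in WT cells; the DOCK8-deficient one passed without the unnumbered DOCK8-deficient unstimulated library (log2 1.92, adjusted p = 0.0399), under quantile normalization (adjusted p = 0.0363) and with array weights (adjusted p = 0.0365). Slc25a37 had group means of 2.71 to 5.88 TPM.

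None of the 9 amino acid carriers passed in either genotype. Over all genes, 5.95% were called higher and 2.15% lower in DOCK8-deficient cells, and 4.6% and 6.63% in WT cells. Slc25a12, the aspartate and glutamate carrier of the malate-aspartate shuttle in most tissues, averaged 15.9 ± 11.8 TPM in DOCK8-deficient and 24.4 ± 9.700 TPM in WT cells with beads, and 18.5 ± 18.2 TPM in DOCK8-deficient and 13.7 ± 10.1 TPM in WT cells unstimulated. Slc25a38, which imports glycine for heme synthesis, was at 23.3 and 31.9 TPM in DOCK8-deficient and 15.2, 18.4 and 21.7 TPM in WT cells with beads. Its level without beads was 3.66 to 42.4 (median 12.4) TPM in DOCK8-deficient and 10.7, 8.57, 28.1 and 7.18 TPM in WT cells. The bead and unstimulated groups overlapped, with differences of 1.09 (SE 0.68, limma adjusted p = 0.396) in DOCK8-deficient and 0.59 (SE 0.64, limma adjusted p = 0.599) in WT cells. Slc25a15, the ornithine carrier of the urea cycle, averaged 3.17 ± 0.0980 TPM in DOCK8-deficient and 3.13 ± 1.104 TPM in WT cells with beads, and 2.13 ± 1.14 TPM in DOCK8-deficient and 0.765 ± 0.615 TPM in WT cells unstimulated. Its WT difference of 1.27 did not pass (adjusted p = 0.102); it passed in 4 alternatives, among them median-ratio scaling (log2 1.61, adjusted p = 0.0360) and the fit without both unnumbered libraries (log2 1.45, adjusted p = 0.0411). The others, Slc25a2, Slc25a13, Slc25a18, Slc25a22, Slc25a29 and Slc25a44, had group means of 0.11 to 13.6 TPM, and the highest single value was 36.8 TPM for Slc25a22, a glutamate carrier, in unstimulated DOCK8-deficient library 1. The uncoupling protein relatives Slc25a14, Slc25a27 and Slc25a30 had group means of 0.82 to 7.996 TPM and differences of -1.23 to 0.61 with beads, none called.

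Of 8 little characterised or outer membrane members tested, 1 was called lower with beads in WT cells and 0 in DOCK8-deficient cells. Over all genes, 6.63% were called lower in WT and 2.15% in DOCK8-deficient cells. Median differences were -0.42 in DOCK8-deficient and -0.58 in WT cells, beside -0.23 and -0.44 for all genes in the same genotypes. Slc25a45 was at 5.92 and 6.05 TPM in DOCK8-deficient and 6.15, 2.59 and 4.61 TPM in WT cells with beads. Unstimulated, it was at 4.74 to 28.8 (median 9.18) TPM in DOCK8-deficient and 18.2, 48.95, 11.8 and 20.5 TPM in WT cells. WT groups did not overlap, and the DOCK8-deficient ones did. It fell by 2.11 in log2 units in WT cells (SE 0.53, limma adjusted p = 0.0193), with a difference of -0.67 (SE 0.57, limma adjusted p = 0.548) in DOCK8-deficient cells. The WT call was lost without WT unstimulated library 1 (0.0579), which at 49.0 TPM was the highest, without WT bead library 2 (0.0936) or 3 (0.0607), and under median-ratio scaling (0.0610) and quantile normalization (0.0852).

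Slc25a53, on the X chromosome, was at 4.28 and 4.03 TPM in DOCK8-deficient and 5.84, 4.08 and 5.999 TPM in WT cells with beads. Without beads it was at 9.46 to 14.4 (median 12.5) TPM in DOCK8-deficient and 10.3, 9.93, 12.7 and 66.8 TPM in WT cells. Every bead library was below every unstimulated one. The differences were -1.34 (SE 0.54, limma adjusted p = 0.159) in DOCK8-deficient and -1.56 (SE 0.51, limma adjusted p = 0.0599) in WT cells, short of the threshold. The WT difference passed in 4 alternatives, among them the fit without the unnumbered WT unstimulated library (log2 -1.79, adjusted p = 0.0439) and a filter of 5 TPM (adjusted p = 0.0373). The DOCK8-deficient one passed when scaled to abundant genes (log2 -1.74, adjusted p = 0.0468) and without WT unstimulated library 3 (adjusted p = 0.0136). Slc25a43, whose gene lies 18.4 kb from Slc25a5 on the same strand of the X chromosome, was at 4.201 and 7.13 TPM in DOCK8-deficient and 3.28, 10.04 and 3.300 TPM in WT cells with beads. The unstimulated level was 9.71 to 23.6 (median 17.3) TPM in DOCK8-deficient and 8.05, 10.9, 9.93 and 9.47 TPM in WT cells. Its differences, of -1.42 (SE 0.43, limma adjusted p = 0.0560) in DOCK8-deficient and -0.84 (SE 0.40, limma adjusted p = 0.201) in WT cells, had the opposite sign to those of Slc25a5 and did not pass. The DOCK8-deficient one passed in 7 alternatives, among them a filter of 5 TPM (adjusted p = 0.0331), scaling to abundant genes (log2 -1.83, adjusted p = 0.0134) and the fits without DOCK8-deficient unstimulated library 4 (log2 -1.56, adjusted p = 0.0381) or WT bead library 2 (adjusted p = 0.0383). Slc25a34 averaged 0.245 ± 0.107 TPM in DOCK8-deficient and 0.0705 ± 0.0615 TPM in WT cells with beads, and 0.661 ± 0.448 TPM in DOCK8-deficient and 0.781 ± 0.414 TPM in WT cells unstimulated. Slc25a46, an outer membrane protein of mitochondrial dynamics, had group means of 7.14 to 11.6 TPM, and Slc25a35, Slc25a47, Slc25a48 and Slc25a54 had group means at or below 2.49 TPM.

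Counted by overlap, 9 members had both DOCK8-deficient bead libraries above all 6 unstimulated ones, beside 11.2% of all genes, and 5 had both below, beside 11.5%. In WT cells 10 members lay above, beside 8.61%, and 10 below, beside 20.9%. The difference of bead responses, DOCK8-deficient minus WT, was called for 0 members, beside 0.00333% of all genes higher and 0% lower. At an unadjusted p under 0.05, 2 members were higher, beside 3.49% of all genes, and 0 lower, beside 0.664%. These were Slc25a1, whose response was larger in DOCK8-deficient cells by 1.84 (95% interval 0.52 to 3.16, limma adjusted p = 0.999), and Slc25a24, by 1.503 (0.30 to 2.70, 0.999). Neither is shown to differ between genotypes over all genes, and the lists of calls differ between genotypes without a difference that was called.

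Genotype without beads was called for 0 of 46 members, beside 0.00667% of all genes higher and 0.0667% lower. At an unadjusted p under 0.05, 6 members were lower in DOCK8-deficient cells, beside 8.89% of all genes, and 0 higher, beside 2.4%. Slc25a1 came closest, at -1.56 (SE 0.36, limma adjusted p = 0.140), with 5 of 6 DOCK8-deficient libraries at 4.54 to 7.51 TPM and all WT libraries at 16.2 to 26.5 TPM. The unnumbered DOCK8-deficient library (16.5 TPM) was the one inside the WT range. Without it the difference was -1.81 (adjusted p = 0.0320) and passed, as it did without both unnumbered libraries (-1.88, 0.0481). Scaled to abundant genes it was -1.23, and without the 4 libraries that stood apart, which leaves 2 DOCK8-deficient libraries, -0.84 (0.635). The comparison of genotypes and that of beads in DOCK8-deficient cells share the 6 unstimulated DOCK8-deficient libraries, so the low Slc25a1 in them enters both.

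The others of the 6 were Slc25a24, Slc25a39, Slc25a5, Slc25a45 and Slc25a3. Slc25a24 was the 1 member whose groups did not overlap, at 3.06 to 5.32 TPM in DOCK8-deficient and 6.05 to 17.2 TPM in WT cells, beside 1.27% of all genes without overlap in that direction. Its difference was -0.94 (SE 0.33, limma adjusted p = 0.291), -0.62 when scaled and -0.93 without the 4 libraries. Slc25a39 differed by -0.97 (SE 0.32, limma adjusted p = 0.268), Slc25a5 by -0.75 (SE 0.30, limma adjusted p = 0.366), Slc25a3 by -0.59 (SE 0.28, limma adjusted p = 0.441) and Slc25a45 by -1.02 (SE 0.45, limma adjusted p = 0.411). Scaled to abundant genes these were -0.62, -0.38, -0.22 and -0.68. X-linked Slc25a43 had the other sign, with a mean of 17.2 ± 5.83 TPM in DOCK8-deficient and 9.58 ± 1.17 TPM in WT cells, a difference of 0.73 (SE 0.34, limma adjusted p = 0.443) that did not pass. Beside these values, Foxp3 averaged 13.3 TPM in DOCK8-deficient and 43.2 TPM in WT unstimulated cells (log2 -1.71, limma adjusted p = 0.0646). Ctla4 (19.9 to 51.6 against 52.4 to 95.9 TPM) and Tnfrsf18 (35.9 to 72.5 against 84.97 to 186 TPM) were also lower without overlap. Entpd1 tended higher (167 to 337 against 131 to 207 TPM), and it and the remaining markers overlapped. None of the 8 Treg and T cell markers was called. The Foxp3 difference cannot be told apart from one between its alleles, and the part of these markers in the carrier levels was not tested.

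**Figure D4:**
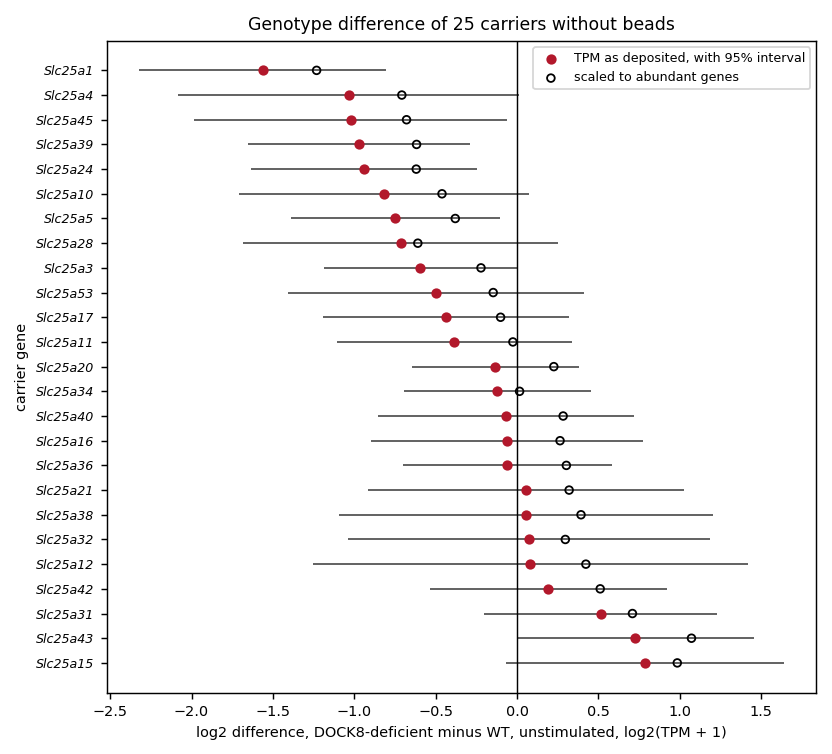
log2 difference of DOCK8-deficient minus WT cells without beads for the 25 carriers described by name, with the 95% interval from limma (filled points) and after scaling to abundant genes (open circles). Slc25a1 is lowest at -1.56 as deposited and -1.23 scaled, and scaling moves all 25 points to the right.

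With beads, genotype was called for 0 of 46 members, beside 0% of all genes higher and 0.00333% lower, and 0 members had an unadjusted p under 0.05 in either direction, beside 2.17% and 0.72% of all genes. The 2 DOCK8-deficient libraries lay above all 3 WT libraries for 6 members, beside 17.4%, and below for 8, beside 8.02%. Slc25a5, Slc25a4 and Slc25a17 were among those below. Their log2 differences were -0.37 (95% interval -1.28 to 0.54), -0.31 (-1.79 to 1.18) and -0.47 (-1.54 to 0.60). For Slc25a1 the difference was 0.28 (-0.80 to 1.35) and for Slc25a39 0.01 (-0.95 to 0.98). Each interval uses 1 spread per gene shared by all 15 libraries, so it does not measure the bead libraries alone. Unstimulated libraries varied more, correlating within a group at 0.706 to 0.784 in DOCK8-deficient and 0.766 to 0.830 in WT cells. With beads these correlations were 0.874 in DOCK8-deficient and 0.895 to 0.903 in WT cells.

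Genes that work beside the carriers were counted in the same bead comparisons, where 5.95% of all genes were called higher in DOCK8-deficient and 4.6% in WT cells. Among the 5937 genes whose mean reached 20 TPM in a group, 32.6% were called in either direction in DOCK8-deficient and 35.6% in WT cells, and nothing particular to a list is read from its count. Of 10 genes of the TIM22 pathway, which inserts carriers into the inner membrane, 8 were called higher with beads in DOCK8-deficient and 7 in WT cells, and none lower (7 in each when scaled to abundant genes), with a median log2 difference of 2.56 in DOCK8-deficient and 2.02 in WT cells. Timm13, a small chaperone of the intermembrane space, averaged 76.6 TPM in DOCK8-deficient and 108 TPM in WT cells with beads and 10.9 and 24.1 TPM in the same genotypes without, with limma adjusted p of 0.000243 and 0.000858 in DOCK8-deficient and WT cells. Timm9, another such chaperone, averaged 49.5 TPM in DOCK8-deficient and 52.02 TPM in WT cells with beads and 4.57 and 6.61 TPM in the same genotypes without, with adjusted p of 0.00143 and 0.00392. Timm8a1 averaged 31.04 TPM in DOCK8-deficient and 30.9 TPM in WT cells with beads, against 1.61 TPM in unstimulated DOCK8-deficient cells, and was listed at 0 in all 4 unstimulated WT libraries.

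Of 20 other mitochondrial membrane transporters, 8 were called higher in DOCK8-deficient and 6 in WT cells and none lower; scaled to abundant genes, 5 were higher in DOCK8-deficient and 6 higher and 1 lower in WT cells. Among the 8 and the 6 was Sfxn1, a serine transporter (log2 2.95 in DOCK8-deficient cells, limma adjusted p = 0.000619, and 2.54 in WT cells, adjusted p = 0.00127). Vdac2, an outer membrane channel, was another (2.02 in DOCK8-deficient cells, limma adjusted p = 0.00273, and 1.67 in WT cells, adjusted p = 0.00531). Of 25 enzymes that use the carried substrates, 10 were called higher in DOCK8-deficient and 6 in WT cells, and none lower; scaled, 7 were higher in DOCK8-deficient and 8 in WT cells. Mdh2, malate dehydrogenase of the matrix, averaged 299 TPM in DOCK8-deficient and 324 TPM in WT cells with beads and 31.7 and 67.9 TPM in the same genotypes without (3.24 in DOCK8-deficient cells, limma adjusted p = 4.28e-05, and 2.25 in WT cells, adjusted p = 0.000410). Shmt2, the mitochondrial serine and folate enzyme, averaged 82.5 TPM in DOCK8-deficient and 106 TPM in WT cells with beads and 5.298 and 11.1 TPM in the same genotypes without (3.73 in DOCK8-deficient cells, limma adjusted p = 9.35e-05, and 3.20 in WT cells, adjusted p = 0.000172). Of the carrier-fold proteins outside the symbol rule, Mtch2 was called higher in both genotypes (1.57 in DOCK8-deficient cells, limma adjusted p = 0.0188, and 1.71 in WT cells, adjusted p = 0.00668), and Ucp2 was called in DOCK8-deficient cells (1.95, adjusted p = 0.00361). In WT cells Ucp2 was not called, though it was at 362 to 525 TPM with beads and 157 to 298 TPM without. Scaled to abundant genes, 2 of the 4 tested genes of this list were called higher in each genotype. As a check of stimulation, 9 of 10 T cell activation genes were called higher in each genotype (8 in DOCK8-deficient and 9 in WT cells when scaled), Irf4 by 5.16 in DOCK8-deficient and 5.53 in WT cells. Mki67, a marker of dividing cells in that list, was at 1.98 to 3.23 TPM in DOCK8-deficient and 2.32 to 5.46 TPM in WT cells with beads. Without beads it was at 0.408 to 1.84 TPM in DOCK8-deficient and 1.31 to 4.52 TPM in WT cells, so the WT groups overlapped. For genotype without beads, 1 gene of these lists was called, Mdh1, the cytosolic malate dehydrogenase, at 24.1 TPM in DOCK8-deficient and 69.2 TPM in WT cells (log2 -1.51, adjusted p = 0.0331); it was not called after scaling to abundant genes. In WT cells with beads 6.63% of all genes were called lower, and so were Klrb1c (-1.70, limma adjusted p = 0.0128) and Cd8a (-1.54, 0.0245) of 5 CD8 T and NK cell markers. Their summed level was 22.9 and 33.4 TPM in DOCK8-deficient and 11.1 to 19.7 TPM in WT cells with beads, and 22.4 to 58.7 TPM in DOCK8-deficient and 29.5 to 63.3 TPM in WT cells unstimulated; none of the 5 was at 0 throughout a group, and their part in the carrier levels was not tested.

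Levels also differed in how often they were listed at 0. Across all 15 libraries 33 of 47 members were above 0 in each. Slc25a2, an ornithine carrier, was listed at 0 in 7 libraries, Slc25a18, Slc25a28 and Slc25a41 in 4 each, Slc25a47 and Slc25a54 in 3 each, Slc25a31, Slc25a33, Slc25a34 and Slc25a35 in 2 each, and Slc25a15, Slc25a22, Slc25a32 and Slc25a48 in 1 each. Zeros also differed between libraries: 38 members were above 0 in unstimulated WT library 3 and 39 in unstimulated DOCK8-deficient library 2, beside 43 to 47 elsewhere. The single zeros of Slc25a15 and Slc25a32 were in that WT library, and those of Slc25a22 and Slc25a48 in that DOCK8-deficient one. In 14 members no group mean reached 5 TPM, and in 8 of them none reached 2 TPM. The members lie on 19 chromosomes. Besides Slc25a43 and Slc25a5, close neighbours are Slc25a29 and Slc25a47 on chromosome 12 (162 bases apart on opposite strands), Slc25a41 and Slc25a23 on chromosome 17 (2056 bases) and Slc25a54 and Slc25a24 on chromosome 3 (6461 bases). In each of these 3 pairs 1 partner stayed under 2 TPM in every group mean, and of these 6 genes Slc25a24 alone was called.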

How the data were processed

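Smart-Seq2 RNA-seq libraries of sorted mouse Treg cells were given as 15 tables, 1 per library, and genes were read by their identifier. Symbols were taken from GENCODE vM21, which held 30788 of the 30949 genes listed for both treatments. The deposited values are TPM, relative transcript levels in which the authors corrected for transcript length and library total. STAR, Salmon and DESeq2 and the mm10 build are named, per the submitters' processing notes; the sources used here give no versions, roles or filters. The tables list 36904 genes for unstimulated and 31785 for bead libraries, 30949 of them in both; predicted genes are among them. TPM keep no depth, so no interval for counting error is given.

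Libraries were grouped by the genotype and treatment labels. log2(TPM + 1), with a pseudocount of 1, was fitted with limma 3.58.1 in R 4.3.3 for the 29989 genes that reached 1 TPM in 2 or more libraries. All 15 libraries entered 1 fit with a mean for each group (11 residual degrees of freedom), moderated variances with a trend, and Benjamini-Hochberg adjustment over all genes tested. Fold changes are on the log2(TPM + 1) scale, which understates those of low genes. The 5 comparisons were DOCK8-deficient against WT without and with beads, beads against unstimulated in each genotype, and the difference of bead responses. Dock8 was compared by an exact permutation test. The procedure was tested on simulated data. Members were named if called in any comparison, if a group mean reached 20 TPM, or if an unadjusted p under 0.05 came with groups that did not overlap; this gave 26 of 47, of which 25 are described and 1 is not reported here; counts and sums over the family include it. The members and gene lists were chosen with earlier results of these data known. Alternatives changed the pseudocount, filter, scaling, library weights and libraries used, and blocked on the number in the title. Leaving out the 4 unstimulated DOCK8-deficient libraries that stood apart, testing only genes whose mean reached 20 TPM in a group, and leaving out single libraries for Dock8 were added after seeing the data. Promoter sequences come from RefSeq (GRCm38.p6), where 36 of 47 members matched. Coordinates of genes are those of GENCODE vM21 on GRCm38.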

Additional observations from a re-analysis of the deposited data

Results flagged for a closer look

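In 8 of 50 named member groups of 4 to 6 libraries, 1 library stood off from the rest, so that its gap to the nearest other library took more of the group's range than Dixon's 95% limit. For normally distributed values chance flags about 1 in 20 groups. The limit was applied to TPM without a log, and members share libraries, so that rate need not hold here. In all 8 the library that stood off was the highest of its group. Among unstimulated WT libraries, library 3 held 4 of these. It was at 28.7 TPM for Slc25a12 beside 7.61 to 10.5 TPM in the other 3 (gap 0.865 of the range), at 35.8 TPM for Slc25a20 beside 20.6 to 21.1 TPM (0.9655), at 43.5 TPM for Slc25a39 beside 21.97 to 23.8 TPM (0.9135) and at 66.8 TPM for Slc25a53 beside 9.93 to 12.7 TPM (0.9509). It was also the highest of the 4 WT libraries for 11 of 25 named members. Library 2 was at 28.1 TPM for Slc25a38 beside 7.18 to 10.7 TPM in the others (0.8301).

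Among unstimulated DOCK8-deficient libraries, library 3 was at 28.8 TPM for Slc25a45 beside 4.74 to 12.9 TPM in the other 5 (0.6627). Library 4 was at 45.0 TPM for Slc25a11 beside 11.9 to 21.6 TPM (0.7072). The unnumbered library was at 16.5 TPM for Slc25a1 beside 4.54 to 7.51 TPM (0.7519).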

How the results depend on the processing

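Of 15 calls of members, 0 changed sign in 418 refits, and 88 refits, 56 of them among 225 that left out 1 library, lost a call. Counts are given here for all genes and for members, and the cause of a shift was not tested. For beads in DOCK8-deficient cells, 2431 genes and 7 members higher were called. With only the libraries of the groups compared these were 1198 and 4, without the 4 unstimulated libraries that stood apart 995 and 3, with array weights 3961 genes, and leaving out 1 library gave 380 to 2703 genes and 2 to 7 members. Members lower, 0 as reported, were 1 with a pseudocount of 5, a filter of 5 TPM, quantile normalization or array weights, 2 when scaled to abundant genes, and 0 to 1 with 1 library left out. For beads in WT cells, 3366 genes, 5 members higher and 3 lower were called. Quantile normalization gave 2097 genes and 0 lower, array weights 6042 genes and 5 lower, median-ratio scaling 11 higher and 0 lower, only the groups compared 1 lower, and leaving out 1 library 1650 to 3645 genes, 1 to 6 higher and 0 to 4 lower. For genotype without beads, 22 genes and 0 members were called. Genes were 8 with a pseudocount of 0.1, 13 with 5, 6 with median-ratio scaling, 8 scaled to abundant genes, 7 with quantile normalization, 4 with only the groups compared, 5 with array weights, 44 without both unnumbered libraries (with 1 member lower), 46 among genes whose mean reached 20 TPM in a group, 11 without the 4 libraries, and 5 to 67 with 1 library left out (0 to 1 member lower). With beads, genotype gave 1 gene: 2 with a pseudocount of 0.1, 0 with 5, 0 scaled to abundant genes, 15 with only the groups compared, 19 with array weights, 2 without the unnumbered libraries, 0 among genes at 20 TPM, 5 without the 4 libraries, and 0 to 3 with 1 library left out. The difference of bead responses gave 1 gene: 3 with a pseudocount of 0.1, 0 with 5, 2 with a filter of 5 TPM, 2 with median-ratio scaling, 0 scaled to abundant genes, 0 with quantile normalization, 5 with array weights, 5 without the unnumbered libraries, 0 among genes at 20 TPM, 4 without the 4 libraries, and 0 to 6 with 1 library left out; a fit with only the groups compared does not exist for it, since it uses all 4. Dock8 without beads differed by -0.67, by -0.32 scaled (exact p = 0.133), by -0.49 without the 4 libraries (exact p = 0.333), and by -0.85 to -0.46 with 1 library left out; with beads it differed by -0.39, and by -0.59 to -0.20.

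Title numbers were not taken to pair libraries: same-numbered libraries of 2 groups had deviations from their group means that correlated at -0.0249 to 0.0265 over genes. With the number as a replicate block, calls were 1 gene for genotype without beads, 0 with beads, 922 genes and 4 members higher for beads in DOCK8-deficient cells, 4 members higher and 0 lower for beads in WT cells (Slc25a3, adjusted p = 0.0774, and Slc25a39, 0.0631, were lost and Slc25a32, 0.0221, gained), and 0 genes for the difference of bead responses. TPM keep no depth, so what depth limits cannot be stated.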
